A study of Mus musculus with 8 samples.

Results

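Regulatory T cells (Tregs) of mouse lung adenocarcinomas were picked out cell by cell from 4 single-cell RNA libraries. A cell was taken as a Treg when it had at least 1 unique molecular identifier (UMI) of Foxp3, at least 2 detected genes among Cd3d, Cd3e, Cd3g, Trac and Trbc2, and no UMI of Cd8a, Cd8b1, Cd79a or Ncr1. At most 2 UMIs were allowed for C1qa, C1qb and C1qc together, and at most 2 for Krt8 and Krt18 together. Cells under 500 UMIs or 250 genes, or above 15% mitochondrial UMIs, had been set aside first. These rules gave 133 Tregs among 24838 cells kept out of 31084 barcodes, of which 5623 were T cells and 4099 were T cells without a Cd8 UMI. The measured values of the listed genes chose the cells, so the levels of those genes are given below as description only.

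The tumours came from KPC mice, in which lung tumours were started by lentivirus delivered into the airway, and the largest were dissected 16 weeks later. The labels name the model KPC (a form of the KP model) and list no alleles for it. In the mA1 tumours, CRISPR activation restricted to tumour cells, begun when the tumours were started, used guides (called dRNAs in the labels) against the long noncoding RNA Malat1, and in the Con tumours it used guides against Tomato, a fluorescent protein gene that serves as the control target. The question was whether raising Malat1 in tumour cells changes the cells around them, and Tregs are among those surrounding cells. Each group had 4 tumours in 2 libraries, dissociated with collagenase and DNase and freed of dead cells, and nothing was stated in these sources on the age, sex or strain of the mice.

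Cells were tagged before pooling with 1 of 2 antibody hashtags that bind CD45 and MHC class I, so a tumour was taken as the cells of 1 library with exactly 1 hashtag. The hashtag barcodes are shown because every comparison over tumours rests on reading them, and both are written with all bases in capitals.
Hashtag 1: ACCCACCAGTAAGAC
Hashtag 2: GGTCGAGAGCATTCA
The labels do not say whether the tumours of a library came from separate mice. P-values over tumours may therefore measure only the spread between these samples, which may be technical. Exactly 1 hashtag was called in 130 of the 133 Tregs, and 3 carried both and entered no comparison over tumours.

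Tregs are CD4-lineage T cells that restrain other lymphocytes. The transcription factor encoded by Foxp3 sets their identity, the IL-2 receptor alpha chain (Il2ra) lets them take up IL-2 at low concentration, and the receptor Ctla4 removes co-stimulatory ligands from antigen-presenting cells. Helios (Ikzf2) is a zinc-finger factor found in most Tregs of thymic origin. In tissues, a subset carrying the IL-33 receptor (Il1rl1) and Klrg1 is known for tissue repair through the growth factor amphiregulin (Areg). The 4 genes used as Treg markers here lie on chromosome X for Foxp3 (7579676 to 7595243), chromosome 1 for Ikzf2 (69531207 to 69687351) and Ctla4 (60909025 to 60915832), and chromosome 2 for Il2ra (11642792 to 11693194), as protein-coding genes in RefSeq on GRCm38 (mm10).

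The libraries held 7735 and 3898 kept cells for mA1 and 7397 and 5808 for Con, with median depths of 4327 and 6810 UMIs for mA1 and 5706 and 4130.5 for Con. Con library 2 stood apart in sex-linked genes, with Xist at 1218 CPM (UMIs of a gene relative to all gene UMIs of the cells summed, scaled to the usual constant total) and Ddx3y at 0.0788 CPM. In the other 3 libraries Xist was at most 1.33 CPM and Ddx3y was between 40.5 and 59.7 CPM. Libraries shared 437 cell barcodes in all, among them 1 Treg barcode, and no barcode was a Treg in more than 1 library. Tregs had a median of 4330 UMIs and a range of 1060 to 49699. There were 8 Tregs over 20000 UMIs, 1 and 3 in the mA1 libraries and 2 in each Con library, and they held 50.5% of the Treg UMIs of mA1 library 2.

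Foxp3 was found in 173 barcodes, all of which passed the quality limits, and 40 of them were not taken as Tregs. Of these 40, 10 had fewer than 2 of the CD3-complex and receptor genes. Among the other 30, a Cd8a or Cd8b1 UMI was present in 14, a Cd79a UMI in 16, C1q genes over the limit in 1 and keratins over the limit in 1. Foxp3 was rare but not confined to the Tregs. It was detected in 12 of 1524 T cells with a Cd8 UMI, or 0.787% (exact Clopper-Pearson 95% interval 0.408% to 1.37%), at a median depth of 4337.5 UMIs. It was in 0 of 1783 B cells, which allows a share of up to 0.168%, at 2539 UMIs. It was in 1 of 1040 C1q macrophages (0.0962%), at 10673 UMIs. B cells and C1q macrophages were taken only where none of the CD3-complex and receptor genes was detected, which can lower their shares. Among T cells without Cd8 the share was 3.24% at 3573 UMIs, above each of these levels.

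Tregs just inside the limit on Foxp3 carried Ikzf2, Ctla4 and Il2ra at levels no lower than the rest. Exactly 1 Foxp3 UMI was seen in 64 Tregs and 2 to 7 in 69. Summed over cells, Ikzf2 was at 1071 CPM in those with 1 Foxp3 UMI and 954.1 CPM in those with more, and Ctla4 was at 451 and 412 CPM. Il2ra was at 264 CPM with 1 Foxp3 UMI and 213 CPM with more. Some other Treg genes described below differed more. Tnfrsf18 was at 302 CPM with 1 Foxp3 UMI and 447 CPM with more, and Tnfrsf4 at 353 and 515 CPM. Izumo1r went the other way, at 149 and 55.9 CPM. There were 4 Tregs with exactly 2 of the 5 T cell genes, and 84 had all of them. Cd4 itself was seen in 64 of 133. Keratin UMIs within the limit occurred in 16 Tregs and C1q UMIs in 5.

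The label Treg was checked against Ikzf2, Il2ra and Ctla4, which the rule did not use. The comparison cells were 1207 Foxp3-negative Cd4 T cells, which met the same rule but had no Foxp3 UMI and at least 1 Cd4 UMI, at a median of 3915 UMIs. At least 1 UMI of Ikzf2 was in 119 Tregs, of Ctla4 in 102 and of Il2ra in 64. All 3 genes were detected in 53 Tregs, 2 in 52, 1 in 22 and none in 6. Among the Foxp3-negative Cd4 T cells, all 3 were detected in 13 cells, 2 in 76, 1 in 276 and none in 842. Those 13 and 76 cells lie just outside the rule and may include Tregs whose Foxp3 was not captured. In 1783 B cells, 34 had 1 of the 3 genes and 1749 had none.

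With every cell thinned to 1000 UMIs, so that depth is equal, Ikzf2 was detected in 64.7% of Tregs, 4.90% of Foxp3-negative Cd4 T cells and 0.0564% of B cells. For Ctla4 the shares were 30.8%, 6.31% and 0.169%, and for Il2ra they were 16.5%, 2.16% and 0.113%. Thinning lowers all shares (unthinned, 89.5%, 76.7% and 48.1% of Tregs had Ikzf2, Ctla4 and Il2ra). The Treg shares of all 3 genes were far above the B cell shares. Those B cells were taken only where no T cell gene of the rule was detected. Their shares can therefore understate the level that free RNA can produce.

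**Figure D1:**
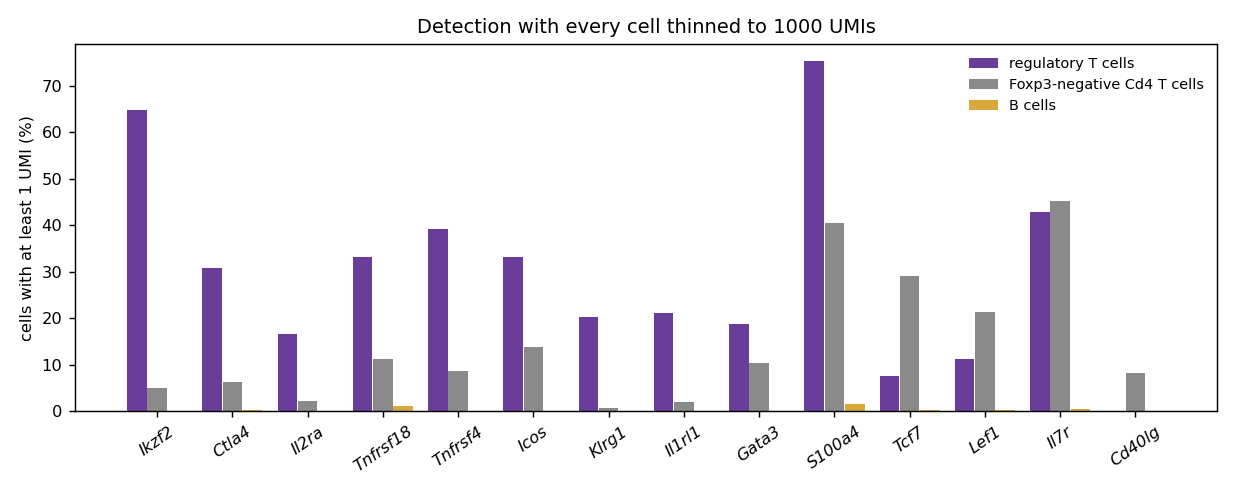
Percent of cells with at least 1 UMI of each gene after thinning to 1000 UMIs per cell, in Tregs (133 cells), Foxp3-negative Cd4 T cells (1204 cells) and B cells (1772 cells) pooled over the 4 libraries. Ikzf2 was in 64.7% of Tregs against 4.90% of Foxp3-negative Cd4 T cells, whereas Cd40lg was in 0% against 8.22%.

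The Treg share of T cells overlapped between mA1 and Con tumours. The share was 1.44%, 3.26%, 1.62% and 3.49% in the 4 mA1 tumours (8, 27, 6 and 14 Tregs) and 3.48%, 3.49%, 1.98% and 0.516% in the 4 Con tumours (12, 33, 27 and 3 Tregs). The lowest and the second highest values both belonged to Con, and 3 of the 4 Con values lay within the range of the mA1 values. Means were 2.45% ± 1.07 in mA1 tumours and 2.37% ± 1.42 in Con tumours (SD, n = 4 each), a difference of 0.0885 percentage points (exact 2-sided permutation test over 70 arrangements, p = 0.943, where the smallest p possible is 0.0286). Per library the share was 2.49% and 2.48% for mA1 and 3.40% and 1.53% for Con (exact permutation p = 1, n = 2 each, smallest possible 0.333). The lower of the Con values came from the library with Xist. Without Con library 2 the mA1 minus Con difference was -1.03 percentage points, and without Con library 1 it was 1.21, so its sign depended on which library was in.

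Nor did the groups separate with other denominators. Of all cells, Tregs were 0.534% ± 0.239 in mA1 tumours and 0.571% ± 0.267 in Con tumours (SD, n = 4 each, exact permutation p = 0.914). Of T cells without Cd8 they were 3.36% ± 1.45 in mA1 tumours and 3.22% ± 1.91 in Con tumours (SD, n = 4 each, exact permutation p = 0.943). With T cells thinned to 1000 UMIs, mA1 averaged 1.02% of T cells and Con 1.13% (SD 0.705 and 0.845, n = 4 each, exact permutation p = 0.886), so the sign of the small difference turned. Binomial intervals and limits for 0 cover counting error only.

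**Figure D2:**
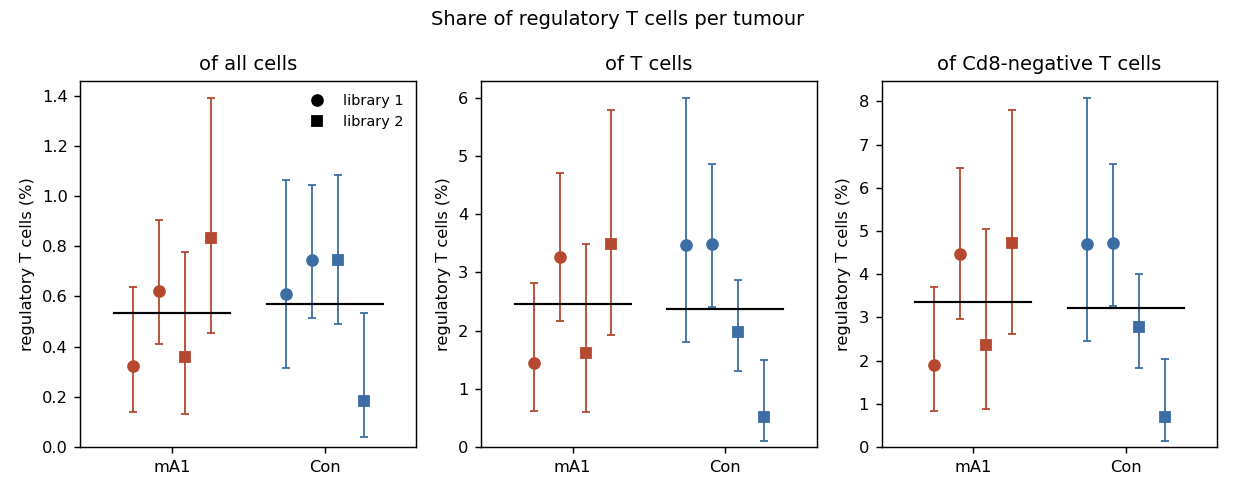
Tregs as a percent of all cells, T cells and T cells without Cd8, 1 point per tumour with its exact binomial 95% interval, circles for library 1 and squares for library 2, and a black line at the group mean. The mA1 tumours range from 1.44% to 3.49% of T cells and the Con tumours from 0.516% to 3.49%.

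For genes, UMIs were summed over the cells of a tumour, and only tumours with at least 10 Tregs were used. These were 2 mA1 tumours (27 Tregs in library 1 and 14 in library 2) and 3 Con tumours (12 and 33 in library 1 and 27 in library 2), with 113 Tregs and 52253 to 211002 UMIs per tumour. Tregs were set against the 801 Foxp3-negative Cd4 T cells of the same tumours in a paired fit (edgeR quasi-likelihood, Benjamini-Hochberg adjusted p over all genes tested, call at an adjusted p under 0.05). The other 3 tumours had 3 to 8 Tregs and were not used for genes. Of 2690 genes tested, 372 (13.8%) were called, 145 (5.39%) higher and 227 (8.44%) lower in Tregs. The count was 211 without mA1 library 1, 205 without Con library 2 and 598 without Con library 1. The gene lists below were chosen with earlier results of these data known, so their counts are set beside those shares and beside the median log2 fold change over all genes of 0.00.

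Genes by which Tregs are known were higher in the Foxp3-positive cells. The Treg identity list holds 15 genes. Of the 8 that passed the filter on low counts, 7 were higher and none lower, with a median log2 fold change of 1.69. A gene can pass that filter through the Tregs alone, so counts over a list are descriptive. Foxp3 was not tested, and the low genes included Itgae, seen in 52 Tregs, Ikzf4 in 42, Itgb8 in 19 and Lrrc32 in 6. In the tumours of mA1 library 1, mA1 library 2, Con library 1 (hashtags 1 and 2) and Con library 2, in that order, Ikzf2 was at 1149.5, 573, 1167, 1192 and 1005 CPM in Tregs. In the Foxp3-negative Cd4 T cells of those tumours it was at 88.7, 41.1, 109.0, 182.0 and 82.8 CPM. The sets did not overlap in any tumour, and Ikzf2 was higher by 3.26 ± 0.18 (log2 fold change ± SE, adjusted p = 1.76e-09, 5 of 5 tumours).

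Il2ra was at 275, 96.7, 478, 232 and 246 CPM in Tregs of the same tumours and at 30.0, 32.0, 104, 58.8 and 18.8 CPM in Foxp3-negative Cd4 T cells. It was lowest in the Tregs of mA1 library 2, yet higher than in the comparison cells in 5 of 5 tumours (log2 fold change 2.49 ± 0.27 SE, adjusted p = 1.97e-05). Ctla4 was at 367, 216, 727, 485 and 502 CPM in Tregs and 77.2, 66.2, 76.3, 98.6 and 102 CPM in Foxp3-negative Cd4 T cells (2.17 ± 0.19, adjusted p = 1.26e-06, 5 of 5 tumours). Foxp3 itself, which chose the cells, was at 318, 171, 402, 330 and 289 CPM in these Tregs. The Tregs of mA1 library 2, the library with 3 deep Tregs, had the lowest level of all 4 genes.

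Further members of the identity list followed. Tnfrsf18, encoding the TNF receptor family member GITR, averaged 419 ± 87.9 CPM in Tregs and 141 ± 22.9 CPM in Foxp3-negative Cd4 T cells (SD, n = 5 tumours), a log2 fold change of 1.43 ± 0.18 SE. Tnfrsf4, encoding another member of that family, was higher by 1.94 ± 0.24. Capg, which caps actin filaments, was higher by 0.90 ± 0.15, and Izumo1r, a folate receptor-like surface protein, by 0.91 ± 0.29 (adjusted p = 0.0445). Nrp1, a co-receptor often used to mark thymic Tregs, had a log2 fold change of 0.56 ± 0.21 and did not pass (adjusted p = 0.0891), while with cells over 20000 UMIs left out it did (0.82, adjusted p = 0.00964). Itgae, an integrin chain that binds E-cadherin, passed the filter and the test with those cells left out (3.08, adjusted p = 5.16e-11). Gpr83 had no UMI in any of the 133 Tregs, which allows up to 2.26% of cells with a UMI, and was also in only 0.331% of Foxp3-negative Cd4 T cells.

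**Figure D3:**
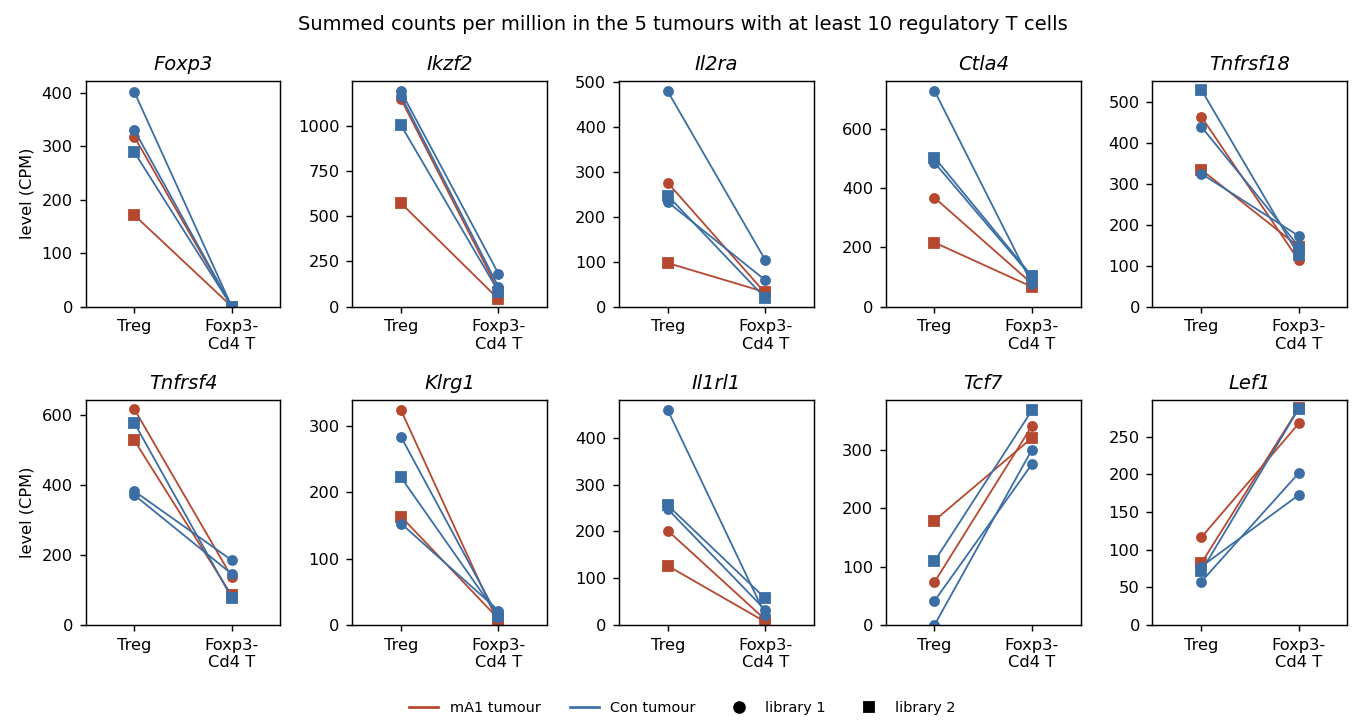
Level of 10 genes in CPM, summed per tumour, in Tregs (left point) and Foxp3-negative Cd4 T cells (right point) of the same tumour, with lines joining the sets of 1 tumour. Foxp3 chose the cells and is shown as description. Ikzf2, Il2ra, Ctla4, Tnfrsf18, Tnfrsf4, Klrg1 and Il1rl1 were higher in Tregs in all 5 tumours, and Tcf7 and Lef1 were lower in all 5.

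Genes of tissue-repair effector Tregs were also higher. Of 18 listed genes 10 passed the filter, and 9 of these were higher, none lower, with a median log2 fold change of 1.06. Klrg1, an inhibitory lectin-like receptor of effector lymphocytes, was at 324, 164, 153, 284 and 223 CPM in Tregs and 2.86, 9.14, 21.8, 11.4 and 13.1 CPM in Foxp3-negative Cd4 T cells of the 5 tumours. This was the largest fitted difference of any listed gene with UMIs in both sets (log2 fold change 4.32 ± 0.32 SE, adjusted p = 4.43e-07). Il1rl1, the receptor for IL-33, was at 202, 126, 459, 248 and 256 CPM in Tregs and 11.4, 6.85, 21.8, 32.2 and 57.1 CPM in the comparison cells (2.97 ± 0.30, adjusted p = 1.03e-05). Neither gene overlapped between the sets.

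Within the Tregs, Klrg1 was detected in 66 cells and Il1rl1 in 71, both in 46 and neither in 42. Gata3, a factor of type 2 lymphocytes that these Tregs also use, was in 76 and its level was higher than in Foxp3-negative Cd4 T cells by 0.87 ± 0.20 (log2 fold change ± SE). Batf was higher by 1.24 ± 0.24, Rora by 0.74 ± 0.17, S100a4 by 0.88 ± 0.11 and S100a6 by 0.80 ± 0.17. Tnfrsf9, the activation receptor 4-1BB, averaged 180 ± 33.1 CPM in Tregs and 23.0 ± 14.1 CPM in the comparison cells (SD, n = 5), higher by 3.11 ± 0.33. Areg was seen in 20 Tregs, 16 of which also had Il1rl1. Its level was 294, 59.5, 0, 361 and 109 CPM in Tregs against 27.2, 20.6, 76.3, 24.6 and 9.70 CPM in the comparison cells, higher in 4 of 5 tumours, and the test was not passed (adjusted p = 0.0630).

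Among suppressive molecules, 4 of 14 listed genes passed the filter and 2 were called, both higher. Fgl2, a secreted fibrinogen-like protein, averaged 337 ± 118 CPM in Tregs and 54.3 ± 28.4 CPM in Foxp3-negative Cd4 T cells (SD over 5 tumours), with a log2 fold change of 2.29 ± 0.32 (SE, adjusted p = 7.86e-04). Lgals1, encoding galectin-1, was higher by 0.62 ± 0.12 (adjusted p = 0.00130). Nt5e, the ectoenzyme CD73, had 0.52 ± 0.27 and Tgfb1 0.22 ± 0.22, neither of which passed. With cells over 20000 UMIs left out, Nt5e was called (0.81, adjusted p = 0.0155). Il10 was detected in 5 Tregs, 4 of them in Con library 2, and Ebi3 in 24. Of the inhibitory receptors, Ctla4 and Pdcd1 (2.12 ± 0.33, adjusted p = 4.30e-04) were higher, while Vsir and Cd5 did not pass and 6 of the 10 listed genes were too low to test.

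Co-stimulatory receptors went both ways. Of 10 tested, 4 were higher (Tnfrsf4, Tnfrsf9, Tnfrsf18 and Tnfrsf1b) and 2 lower. Cd40lg, the ligand by which helper T cells license B cells and dendritic cells, averaged 12.5 ± 16.4 CPM in Tregs and 83.7 ± 20.8 CPM in Foxp3-negative Cd4 T cells (SD over 5 tumours), a difference of -3.28 ± 0.49 on the log2 scale (SE, adjusted p = 2.57e-04). Cd28 fell by 0.54 ± 0.17 (adjusted p = 0.0400), and was not called with cells over 20000 UMIs left out (-0.36, adjusted p = 0.148). Helper cytokines were rarely detected, and of 13 listed genes 2 were tested and 1, Cd40lg, was lower. Il4 had no UMI in Tregs, Il2 and Ifng were each in 2 cells, and Il17a was in 5 cells, all from Con library 1. In the IL-2 and gamma-chain list, with 9 of 14 genes tested, Il2ra was higher, whereas the survival factor Bcl2 (-2.34 ± 0.22, adjusted p = 2.66e-06) and the IL-7 receptor Il7r (-0.59 ± 0.16, adjusted p = 0.0153) were lower. Il7r was called in 13 of 21 alternatives, some of which repeat a fit, since leaving out a library with 1 tested tumour equals leaving out that tumour. With cells over 20000 UMIs left out Il7r was not called (-0.26, adjusted p = 0.193).

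Genes of naive and recirculating T cells were lower in Tregs. Of 13 listed genes 12 were tested and all 12 were lower, with a median log2 fold change of -1.71 (the same with Dapl1 put at its bound below). Lef1, a factor of naive and memory-precursor T cells, was at 116, 81.8, 57.4, 77.4 and 71.1 CPM in Tregs and 268, 288, 202, 172 and 287 CPM in Foxp3-negative Cd4 T cells. Tcf7, a related factor, was at 73.4, 179, 0, 41.3 and 109 CPM in Tregs and 340.5, 319.8, 299.7, 275 and 367 CPM in the comparison cells. Neither gene overlapped between the sets, and the Tregs of Con library 1 had the lowest levels of Tcf7. Tcf7 fell by 2.10 ± 0.33, Satb1 by 2.31 ± 0.38, S1pr1, the receptor for leaving tissue, by 1.51 ± 0.19, and Ccr7 by 1.71 ± 0.31 on the log2 scale. Dapl1 had 0 UMIs in 133 Tregs. In the 5 tumours tested it had 327 UMIs in 801 Foxp3-negative Cd4 T cells. It was at least 22.9-fold lower in the 113 Tregs of those tumours when 3 counts over these Tregs are taken as the floor.

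Such genes were still detected in some Tregs. Tcf7 was in 23 Tregs, Ccr7 in 14 and Lef1 in 47, whereas Il7r of the same list was in 100. Tcf7 and Lef1 were seen together in 15 cells, Tcf7 without Lef1 in 8 and Lef1 without Tcf7 in 32. Tcf7 was in 9 of 36 and 3 of 20 Tregs in the mA1 libraries and in 5 of 46 and 6 of 31 in the Con libraries. Tregs with a Tcf7 UMI had a median of 6386 UMIs and those without one 3920.0, so depth moves with this split, and its part was not tested.

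Transcription factors and trafficking receptors went both ways. Of 20 factors tested (30 listed), 4 were higher (Ikzf2, Batf, Gata3 and Rora) and 6 lower, among them Ikzf1 (Ikaros; -1.38 ± 0.23, adjusted p = 4.76e-04) and Foxp1 (-1.22 ± 0.22, adjusted p = 0.00102). Of 15 trafficking genes tested, Ccr2, the receptor for Ccl2, was higher (1.17 ± 0.25, adjusted p = 0.00442). It was in 72 Tregs. Among the 5 lower were S1pr1, Ccr7, the integrin chain Itgb1 (-1.09 ± 0.21) and Cxcr6 (-0.68 ± 0.19, adjusted p = 0.0236), a receptor of tissue-resident T cells, which was not called with cells over 20000 UMIs left out (-0.35, adjusted p = 0.236). The tumour Treg receptor Ccr8 was in 17 Tregs and was too low to test.

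**Figure D4:**
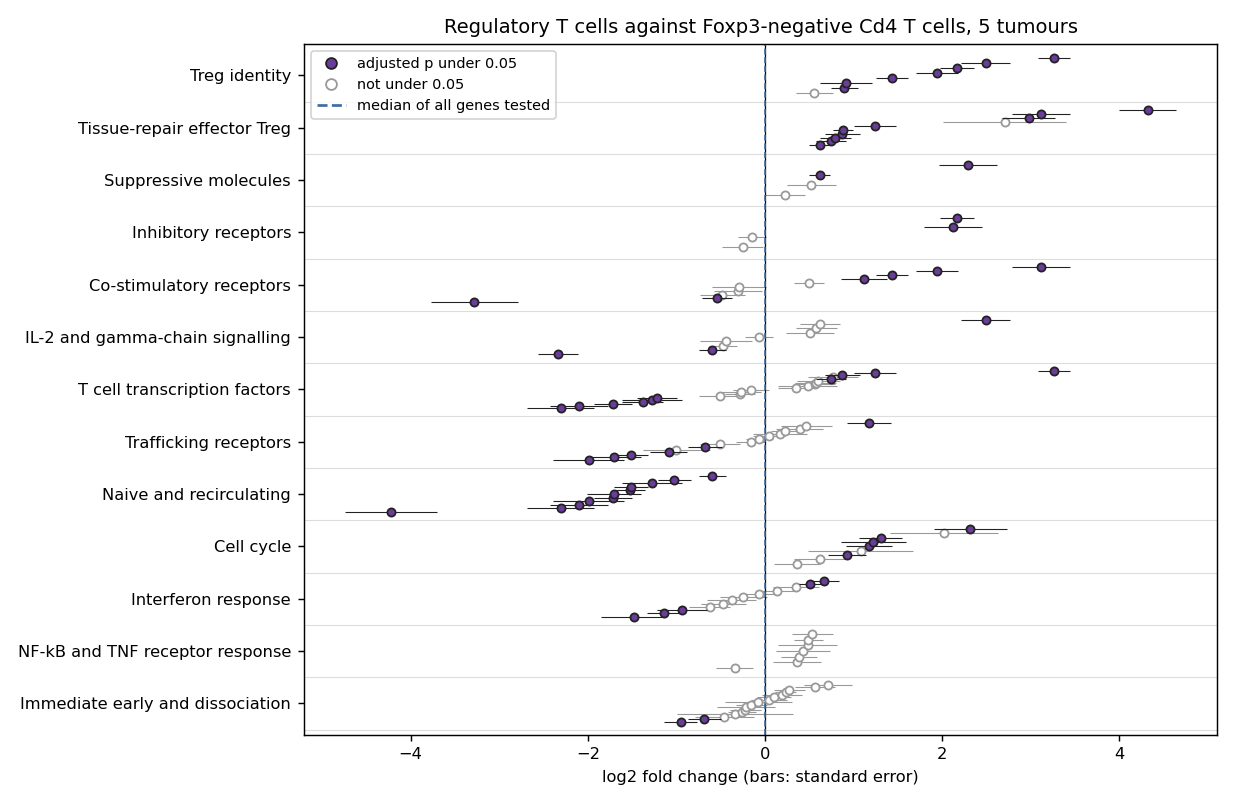
Log2 fold change of each tested list gene in Tregs against Foxp3-negative Cd4 T cells, with standard errors, filled where the adjusted p was under 0.05. Dapl1, with no UMI in Tregs, is not drawn. The median over all genes tested was 0.00, against 1.69 for Treg identity genes and -1.71 for naive and recirculating genes.

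Several cell cycle genes were higher in Tregs. Of 17 listed genes 9 were tested and 5 were higher, none lower. Top2a, a DNA topoisomerase of dividing cells, averaged 188 ± 129 CPM in Tregs and 69.7 ± 31.9 CPM in Foxp3-negative Cd4 T cells, and was higher by 1.30 ± 0.24 on the log2 scale (SE, adjusted p = 0.00111, 4 of 5 tumours). Mki67 was higher by 1.17 ± 0.26 and Birc5 by 2.32 ± 0.41. Mki67 was in 36 Tregs, Top2a in 32 and both in 21. Tregs with Mki67 had a median of 7860 UMIs and those without 3689. With cells over 20000 UMIs left out, 6 cell cycle genes could be tested and 2 were called, Mki67 (1.25, adjusted p = 1.13e-04) and Top2a (1.26, adjusted p = 9.12e-05).

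Interferon genes showed no common direction, with 2 of 12 tested higher (Ifi27l2a by 0.67 ± 0.16 and Ly6e by 0.51 ± 0.13) and 3 lower (Ly6a by -1.14 ± 0.20, Isg15 by -1.48 ± 0.37 and Zbp1 by -0.94 ± 0.28). None of 7 genes tested of the NF-kB and TNF receptor list was called with all cells, and 3 of 5 were called higher with cells over 20000 UMIs left out. Of 16 immediate early and dissociation genes, Btg2 (-0.95 ± 0.19) and Ier2 (-0.68 ± 0.19) were lower. Malat1 fell by 0.57 ± 0.12 in Tregs (adjusted p = 0.0141, higher in 1 of 5 tumours), and this was not called with the deep cells left out (-0.25, adjusted p = 0.0801).

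Outside the lists, the 12 genes higher in Tregs with the lowest p included Gm28112, a gene named only by a model number, at 73.4 to 118 CPM in Tregs and 2.86 to 17.1 CPM in Foxp3-negative Cd4 T cells (log2 fold change 3.87 ± 0.36 SE, adjusted p = 2.29e-06). Glrx, which reduces glutathionylated proteins, was higher by 2.15 ± 0.25. Odc1, the first enzyme of polyamine synthesis, was higher by 1.34 ± 0.18. Itgav, the integrin alpha V chain, was higher by 1.82 ± 0.25, and Sdc4, a cell surface heparan sulphate proteoglycan, by 1.87 ± 0.27. The others were Arl5a, Hopx, Cmtm7, Tent5a, Syngr2, Bmyc and Rfk, with log2 fold changes of 1.39 to 2.28. Each of the 12 was higher in 5 of 5 tumours.

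The 12 genes lower in Tregs with the lowest p outside the lists were 11 ribosomal protein genes and Tpt1. Over all ribosomal protein genes, 59 of 78 were lower and 1 was higher, with a median log2 fold change of -0.44. Rps29, for instance, averaged 5959 ± 784 CPM in Tregs and 10198 ± 1096 CPM in Foxp3-negative Cd4 T cells. With cells over 20000 UMIs left out, 71 of 77 ribosomal protein genes were lower and 0 higher, with a median of -0.56. Naive genes and ribosomal genes were both lower here, and whether they are linked was not tested. The comparison was repeated with another set of comparison cells, chosen after those results were seen.

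In this second comparison, Foxp3-negative Cd4 T cells were kept only where 4 genes of the naive list, among them Ccr7, Lef1 and Tcf7, were all at 0, which left 145 cells in the 5 tumours and 14 to 44 per tumour. The 113 Tregs were the same as before and were not filtered on these genes, and depth was not matched between the sets. Among all 133 Tregs, Lef1 was in 47 and Tcf7 in 23. With 1910 genes tested, 127 were called, 57 higher and 70 lower. The lower ribosomal genes came down to 5 of 76, with 2 called higher and a median of -0.13. Of the 127 genes, 87 were among the 372 called before.

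Some Treg genes were called against these cells and others were not. Ikzf2 (2.54, adjusted p = 7.08e-08), Klrg1 (3.17, adjusted p = 3.90e-05), Tnfrsf9 (2.15, adjusted p = 6.49e-04), Ctla4 (1.81, adjusted p = 1.72e-05) and Il2ra (1.73, adjusted p = 8.80e-04) were still higher. So were Pdcd1 (1.40), Fgl2 (1.21), Batf (1.18), Tnfrsf18 (1.01) and Top2a (1.32), while Mki67 (1.10, adjusted p = 0.611) was not, and 2 of 7 cell cycle genes tested were called. By contrast, S100a4 (0.066), S100a6 (-0.051), Lgals1 (-0.22), Capg (0.17) and Ccr2 (0.24) had log2 fold changes near 0 and were not called. Nrp1 turned to -0.34 (adjusted p = 0.567). Gata3 (0.51), Rora (0.29), Tnfrsf1b (0.36) and Ly6e (0.23) were not called either. Il1rl1 kept a fold change of 2.23 but was not called (adjusted p = 0.154), and Tnfrsf4 had 1.26 (adjusted p = 0.0523).

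Some genes were called lower in Tregs against these cells too. Among these were Cd40lg (-3.62, adjusted p = 1.42e-04), Bcl2 (-1.76, adjusted p = 5.91e-04) and Cxcr6 (-1.78, adjusted p = 6.01e-06). Itgb1 (-1.36), Ly6a (-1.61) and Malat1 (-0.42, adjusted p = 0.0032) were others. From the naive list, Ms4a4b (-1.25), Klf2 (-1.22) and Ms4a6b (-0.81) were also called lower (edgeR adjusted p = 6.29e-04, 0.0103 and 0.0180). Il7r (-0.33, adjusted p = 0.307), Cd28 (-0.39, adjusted p = 0.367), S1pr1 (-0.77, adjusted p = 0.125), Satb1 (-0.93, adjusted p = 0.0799) and Ier2 (-0.69, adjusted p = 0.109) were not called, nor was Foxp1 (0.088). Thus S100a4, S100a6 and Lgals1 were called or not according to which Foxp3-negative cells were used, whereas Ikzf2, Klrg1, Ctla4, Il2ra, Cd40lg and Bcl2 were called with both.

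Markers of other cell types were present in the summed Tregs, unevenly between libraries. The 7 B cell markers summed to 451 and 141 CPM in Tregs of the mA1 libraries and 2091 and 417 CPM in those of the Con libraries, with Cd79a at 0 by the rule. In Foxp3-negative Cd4 T cells they summed to 269 and 143 CPM for mA1 and 300.3 and 343 CPM for Con. Ighm was called higher in Tregs (log2 fold change 1.61 ± 0.25 SE, adjusted p = 3.05e-04). The 4 neutrophil markers summed to 17.0 and 1881 CPM in Tregs of the mA1 libraries and 6643 and 4.30 CPM in those of the Con libraries, and to 9.66, 3803, 43.7 and 6.14 CPM in the same order with the deep Tregs left out. The 10 macrophage markers summed to 344 to 4297 CPM with the deep cells and 282 to 937 CPM without. The 6 dendritic cell markers summed to 241 to 3688 CPM with them and 289 to 5567 CPM without. Markers of plasma cells summed to 99.0 to 1339 CPM, of NK cells to 34.4 to 568 CPM, of gamma-delta T cells to 0 to 192 CPM, of epithelium to 34.1 to 119 CPM and of red cells to 0 to 23.0 CPM, while the 3 mast cell and basophil markers were at 0 in Tregs. The part of these RNAs in the gene results was not tested.

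Setting mA1 against Con within Tregs, no gene was called. Of 2796 genes tested over 2 mA1 and 3 Con tumours, 0 (0%) passed with edgeR, with 127 (4.54%) at an unadjusted p under 0.05, and DESeq2 also called 0, with 55 at an unadjusted p under 0.05. The groups of tumours did not overlap for 557 genes (19.9%). With mA1 library 1 left out, where the single mA1 tumour is assumed to vary like the Con tumours, 108 genes were called. The remaining mA1 tumour is from the library in which deep cells hold 50.5% of the Treg UMIs. Leaving out Con library 1 gave 4 and Con library 2 gave 2.

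Malat1, the gene targeted in tumour cells, was not called in Tregs. It was at 19714 and 15430.1 CPM in Tregs of the mA1 tumours and 25032, 17306 and 19256 CPM in those of the Con tumours, and 1 mA1 value lay within the Con range and the other below it (log2 fold change -0.21 ± 0.17 SE, adjusted p = 0.976). With deep cells left out the fold change was 0.19. Neat1, the neighbouring nuclear RNA, was at 153 and 112 CPM in mA1 Tregs and 555, 392 and 284 CPM in Con Tregs. It did not overlap between groups and had the second lowest p, but did not pass (-1.57 ± 0.38, adjusted p = 0.710).

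The Treg markers were not called between the groups either. Ikzf2 was at 1149.5 and 573 CPM in mA1 Tregs and 1167, 1192 and 1005 CPM in Con Tregs (log2 fold change -0.38 ± 0.31 SE, adjusted p = 0.976). Il2ra was at 275 and 96.7 CPM in mA1 Tregs and 478, 232 and 246 CPM in Con Tregs (-0.67 ± 0.44, adjusted p = 0.955). Ctla4 was at 367 and 216 CPM in mA1 Tregs and 727, 485 and 502 CPM in Con Tregs, without overlap (-0.93 ± 0.32, adjusted p = 0.933). Of the 11 Treg identity genes tested, 2 did not overlap, among 19.9% of all genes.

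Of all genes, Izumo1r had the lowest p. It was at 214 and 141 CPM in mA1 Tregs and 57.4, 41.3 and 47.4 CPM in Con Tregs, so both mA1 tumours lay above all Con tumours (log2 fold change 1.93 ± 0.42 SE, unadjusted p = 2.55e-04, adjusted p = 0.710). It was detected in 19 of 36 and 11 of 20 Tregs in the mA1 libraries and in 10 of 46 and 7 of 31 in the Con libraries. Its fold change was 0.96 with at least 2 Foxp3 UMIs required, and over all Tregs its level was 149 CPM with 1 Foxp3 UMI and 55.9 CPM with more. Among the genes lowest in mA1, Igkc was at 110.1 and 67.0 CPM in mA1 Tregs and 364, 717 and 251 CPM in Con Tregs (-2.34 ± 0.52, adjusted p = 0.710). Igkc encodes an antibody light chain and is itself 1 of the 7 B cell markers summed above. The sum was highest in Con library 1, but it holds the Igkc counts and is not separate from them. The part of B cell RNA in this difference was not tested. Crip1 (-0.96 ± 0.25), Ubn2 (-2.31 ± 0.63) and Emb (-1.29 ± 0.37) followed, and Ndufv1, Impdh2, Pa2g4 and Mrpl12 had fold changes of 1.44 to 1.80. None passed with all 5 tumours. Igkc was called in 6 of 18 alternatives, with fold changes of -4.60 to -1.45, among them without Con library 2 (edgeR adjusted p = 0.0292). Leaving out a library with 1 tested tumour repeats the fit without that tumour, so some alternatives count the same fit again. Without mA1 library 1, which leaves 1 mA1 tumour, Igkc had -2.67, Crip1 -1.13, Neat1 -1.72 and Emb -1.40. In that fit Ndufv1 had 2.15, Impdh2 2.49, Pa2g4 2.09 and Mrpl12 2.10. Without mA1 library 2, which also leaves 1 mA1 tumour, these had 1.42, 0.72, 0.51 and 0.46 in that order. Igkc had -2.08, Crip1 -0.76, Neat1 -1.39 and Emb -1.14 there. The mA1 and Con tumours did not overlap for any of these genes, so a kept direction was fixed beforehand and is no support.

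Genes of the tissue-repair program were not called (9 of 12 tested negative, median log2 fold change -0.33 against 0.03 for all genes). Il1rl1 was at 202 and 126 CPM in mA1 Tregs and 459, 248 and 256 CPM in Con Tregs, without overlap (-0.87 ± 0.38, adjusted p = 0.955). Klrg1 had 0.088 ± 0.38. For the 16 immediate early and dissociation genes, 15 were negative with a median of -0.66, 4 did not overlap, against 19.9% of all genes, and none was called. Hspa1b, a heat shock gene, was at 495 and 565 CPM in mA1 Tregs and 1493, 965 and 758 CPM in Con Tregs (-0.97 ± 0.33, adjusted p = 0.933). With Con library 1 left out, which leaves 1 Con tumour, the median of this list was 0.019 and 7 of 16 were negative. The sign of its median thus depended on which Con tumours were in. The cell cycle list had a median of 0.40 with all tumours and -0.39 without mA1 library 2, and -0.34 without Con library 1.

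**Figure D5:**
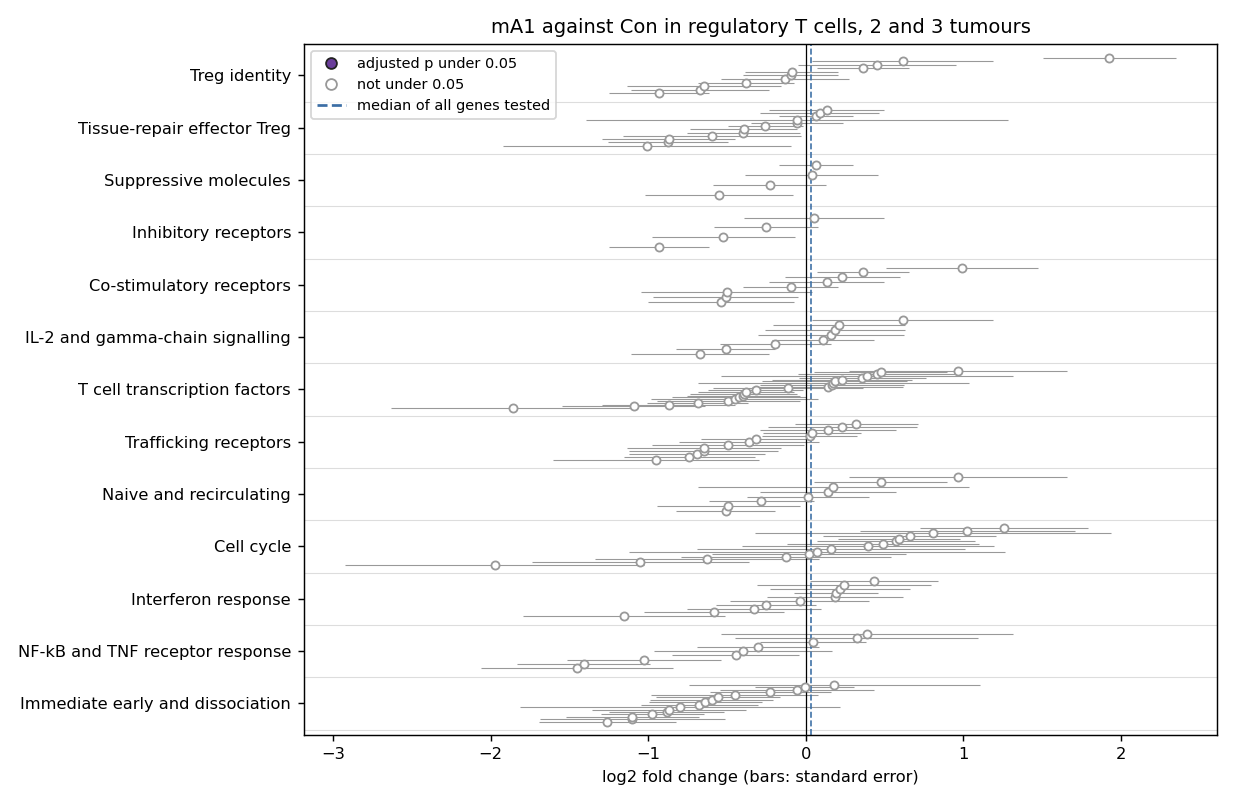
Log2 fold change of each tested list gene in Tregs of 2 mA1 tumours against Tregs of 3 Con tumours, with standard errors. No point is filled, since none had an adjusted p under 0.05, and Izumo1r stands highest at 1.93.

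Whether the mA1 and Con difference was another one in Tregs than in Foxp3-negative Cd4 T cells was tested as an interaction. Of 3712 genes, 0 (0%) were called with edgeR, with 191 at an unadjusted p under 0.05, and 0 with DESeq2, with 53 at an unadjusted p under 0.05. Neat1 had the lowest p (interaction log2 fold change -1.71 ± 0.41 SE, adjusted p = 0.930). Izumo1r had 1.24 ± 0.52 and Malat1 -0.37 ± 0.25. The interaction count was 8 without mA1 library 1, 11 without Con library 1 and 4 without Con library 2. A lack of calls over 2 and 3 tumours does not show that the groups were alike.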

How the data were processed

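Droplet 3' single-cell libraries of 8 tumours were deposited as 4 matrices of UMI counts, 1 per library, with hashtag counts in the same matrices. Per the submitters' processing notes the authors made these counts with Cell Ranger 6.0.1 on mm10. The rules on cells above were applied to the deposited counts. Hashtags were called with a Gaussian mixture of log10 counts (scikit-learn 1.9.0, posterior 0.5). Scrublet (scanpy 1.11.5) marked 174, 29, 65 and 0 cells, 1 of them a Treg, and did not work in Con library 2, so its calls were left out only as an alternative. Summed counts were tested with edgeR 4.0.16 (TMM, filterByExpr, robust quasi-likelihood) in R 4.3.3, checked on simulated data, with DESeq2 1.42.0 as the alternative. Genes used by the rule, and Cd4 in the paired and interaction fits, were not tested. Member cells, gene lists and tests were chosen with earlier results of these data known. Text names 2 to 4 genes per list by lowest p, the markers, and the 12 called genes per direction outside the lists with the lowest p (5 of lowest p where none was called). One gene of the naive list is not reported here by name. Some list members are also named for what they are known to do. Correlations of deviations between mA1 and Con tumours of the same library number were 0.19, -0.065 and 0.18. With only 2 mA1 tumours their deviations mirror each other, so different numbers give the same values with the sign turned. Whether the library number pairs the groups cannot be decided this way.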

Additional observations from a re-analysis of the deposited data

Results flagged for a closer look

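T cells with a Cd8a or Cd8b1 UMI, which the rule for Tregs leaves out, held Foxp3 in 0.787% of cells, or 12 of 1524 (exact Clopper-Pearson 95% interval 0.408% to 1.37%). The value stood out because it lies above the level in B cells, at 0 of 1783, which allows a share of up to 0.168%. The B cells were taken only where none of the CD3-complex and receptor genes was detected, which can lower their share. Median depths were 4337.5 UMIs in the T cells with Cd8 and 2539 in the B cells. The parts of depth and of that choice of B cells were not tested. In 9 groups of tumours examined for a single value far from the rest, none was found, while chance alone would give about 1 in 20.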

How the results depend on the processing

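Tregs against Foxp3-negative Cd4 T cells gave 372 calls. The count was 241 with DESeq2, 647 with no filter on low counts, 226 with at least 2 Foxp3 UMIs, 189 with Cd4 required in both sets, 639 against all Foxp3-negative T cells, 138 with thinned cells and 127 against cells without naive genes. Leaving out 1 tumour or library gave 205 to 598, with 211 without mA1 library 1, 205 without Con library 2 and 598 without Con library 1. Fewer genes or cells entered several of these, and otherwise the cause was not tested. The mA1 against Con count of 0 was 6 with no filter and 0 to 108 with 1 tumour or library left out. It was 5 with the replicate block, among them Igkc (edgeR adjusted p = 1.06e-04) and Izumo1r (edgeR adjusted p = 0.0132). That block pairs the library numbers. Whether these numbers pair the groups could not be decided from the correlations of deviations given above. The interaction count of 0 was 1 with no filter and 0 to 11 with 1 left out.

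The mA1 minus Con share of T cells was -0.109 percentage points with thinning, -0.0279 with at least 2 Foxp3 UMIs, and -1.03 to 1.21 with 1 left out. Of T cells without Cd8 it was -0.0995, -0.0291 and -1.34 to 1.63, and of all cells -0.166 to 0.0701 with 1 left out. The replicate block gave exact permutation p of 1, 0.889 and 1 for the shares of T cells, all cells and T cells without Cd8 and changed none of these calls.

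Of the genes followed through every alternative, with S100a6 and Nrp1 added, these turned sign (log2). For mA1 against Con, with deep cells left out Fgl2 had 0.10 and Malat1 0.19, per library Tnfrsf4 had -0.14 and Ube2c 0.010, with at least 2 Foxp3 UMIs Tnfrsf4 had -0.29 and Mcm5 -0.31, and with 1 left out Ikzf2 ranged from -0.87 to 0.014 and Fgl2 from -0.52 to 0.38. For Tregs against Foxp3-negative Cd4 T cells, against cells without naive genes Lgals1 had -0.22, S100a6 -0.051, Nrp1 -0.34, Foxp1 0.088 and Nr4a1 -0.073. With Cd4 required Tgfb1 had -0.18, Vsir 0.046, Nfkbia -0.010, Tnfaip3 -0.25 and Traf1 -0.14. With at least 2 Foxp3 UMIs Vsir had 0.11 and Tnfaip3 -0.13, without deep cells Vsir 0.047 and Cd5 0.011, per library Cd5 0.011, and against all Foxp3-negative T cells Cd5 0.43. The cause was not tested. Alternatives on cells without naive genes and on deep cells were chosen after seeing the data. At 1000 UMIs few Foxp3 transcripts are left, and tumours with 3 to 14 Tregs limit every share.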
